A study of Mus musculus with 4 samples.

Results

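The oxidative phosphorylation subunits are the nuclear-encoded proteins of the 4 respiratory chain complexes and of the ATP synthase. They were taken from the count table by gene symbol, as the genes whose names begin with Ndufa, Ndufb, Ndufc, Ndufs, Ndufv, Sdha to Sdhd, Uqcr, Cox4 to Cox8 or Atp5, without the Ndufaf assembly factors. The rule itself used no measured value, and it found 78 of the 12700 genes in the table. The paper kept only genes covered by reads over a set part of their length, so presence in the table can depend on measured reads. Of these, 37 belong by name to complex I, 4 to complex II, 8 to complex III, 16 to complex IV and 13 to complex V. All but 1 are protein-coding genes, the exception being the pseudogene Ndufs5-ps. Subunits encoded by mitochondrial DNA were not analysed here.

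The series compares the brain of Ids-ko mice, a model of Hunter syndrome that lacks the lysosomal enzyme iduronate 2-sulfatase, with that of wild-type mice, all C57BL/6 and aged 9 months. The areas were the cerebral cortex (Cx) and a block of midbrain, diencephalon and hippocampus (M). The 4 libraries are CxH (cortex labelled Ids-/-), CxWT (wild-type cortex), MH (M labelled Ids-/-) and MWT (wild-type M). Each was 1 library from mRNA of a pool of 7 mice, so no spread between mice or pools could be measured and a test on reads compares libraries and not conditions. The paper took both areas from each brain, so by the labels the Cx and M pools of a genotype come from the same 7 mice.

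In mitochondria, complex I takes electrons from NADH and complex II takes them from succinate, both passing them to ubiquinone. Complex III hands them on to cytochrome c, and complex IV to oxygen. Complexes I, III and IV pump protons across the inner membrane, and complex V, the ATP synthase, lets them back through its membrane part Fo to make ATP in its soluble head F1. Neurons depend on this supply for ion pumping and synaptic transmission, and some complex IV subunits exist as isoforms with tissue preferences.

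Levels are given as RPM, the reads on a gene per 1000000 aligned reads of its library. Reads on genes ranged from 16380080 in MWT to 23475080 in CxH. The ± after a log2 ratio is its standard error from counting. For a call, up or down, a gene had to pass 0.05 in a Poisson likelihood ratio test and to differ by 0.7 or more on the log2 scale. Intervals and standard errors cover counting error only.

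The labels of both areas need care before any ratio is read. Ids had 135 RPM in CxH, 354 in CxWT, then 368 in the library labelled MH and 155 in the library labelled MWT, so in M the knock-out label stands on the library with more Ids. The summed level of 15 genes of cortical excitatory neurons was 5096 RPM in CxH and 4589 in MH, against 1017 in CxWT and 854 in MWT. The summed level of 16 genes of midbrain and diencephalon ran the other way, at 40.3 and 52.7 RPM in CxH and MH and 607 and 509.8 in CxWT and MWT, with En1 at 0 in MH. The library labelled CxWT thus had few reads on cortical genes and the library labelled MH few on midbrain genes, so the doubt reaches CxH vs. CxWT as well as MH vs. MWT. The names CxH, CxWT, MH and MWT below are those of the libraries as labelled. In the same way, Cx below stands for the pair CxH vs. CxWT and M for the pair MH vs. MWT, and not for an area known from the markers. Taken by Ids in place of the label, the sign of every MH vs. MWT ratio turns and that of every CxH vs. CxWT ratio stays. The genotype, the area dissected and the library cannot be told apart.

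The members summed to 6195 RPM in CxH (95% Poisson interval 6170.0 to 6220.0), 6446 in CxWT (6419 to 6473), 5462 in MH (5439 to 5486) and 6897 in MWT (6867 to 6928). MH was the lowest and MWT the highest. Single genes differed in this: 41 of the 78 members had their lowest level in MH, and the highest was in MWT for 32, in CxH for 28, in CxWT for 14 and in MH for 4. In complex IV each library was the lowest for 4 genes. In bulk tissue, fewer cells rich in mitochondria and less RNA per cell cannot be told apart.

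**Figure D1:**
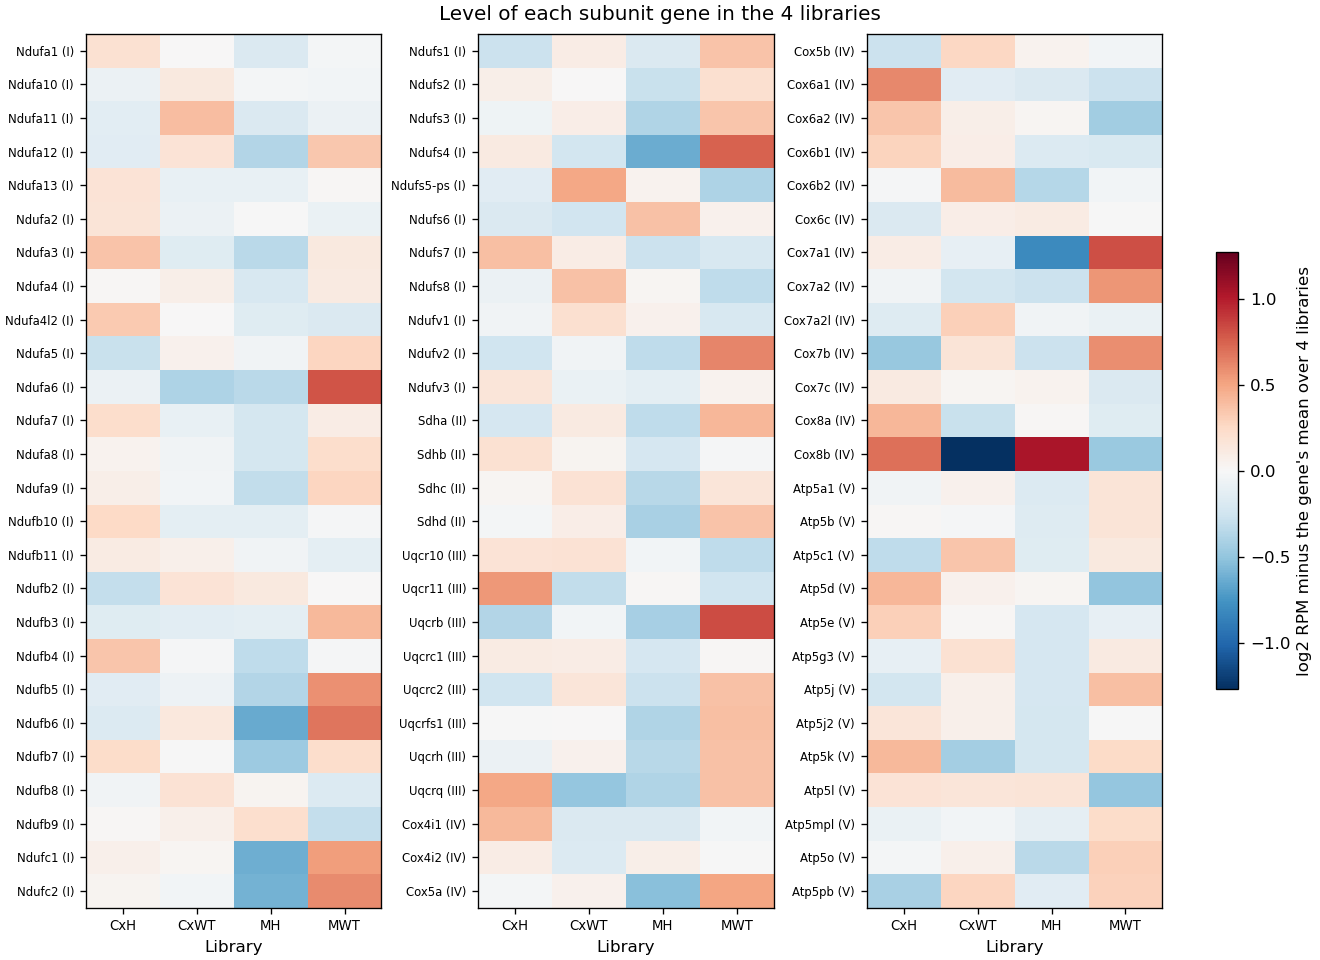
Level of each of the 78 subunit genes (rows, with the complex in brackets) in the 4 libraries (columns), as log2 RPM minus the mean of that gene over the 4 libraries. MH is the lowest library for 41 members, and MWT the highest for 32.

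In the pair labelled M the subunits were lower in MH than in MWT, and these libraries also differed in the area markers given above. The median log2 ratio of the members was -0.32, while that of all genes was -0.066. Ratios were below 0 for 53 members. Of the 78, 19 were called down (24.4%) and 0 up, where 12.7% of all genes were called down and 12.3% up. After a correction for GC content and length, described further on, the median was -0.065 against -0.026 for all genes, and 5 members were called down and 4 up. Of the 19, Ndufa12, Ndufs3, Sdha, Uqcrh and Uqcrq fell short of the threshold with TMM factors, at -0.657 to -0.696, and with DESeq2 size factors, at -0.656 to -0.695. In Cx the median was 0.016 against -0.093 for all genes, 6 members were called up (7.69%) and 0 down, and the shares over all genes were 9.46% up and 11.5% down. With column totals as the scaling, the calls in Cx became 5 up and 1 down. Only Uqcrq was called in both areas, up in Cx and down in M as labelled.

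**Figure D2:**
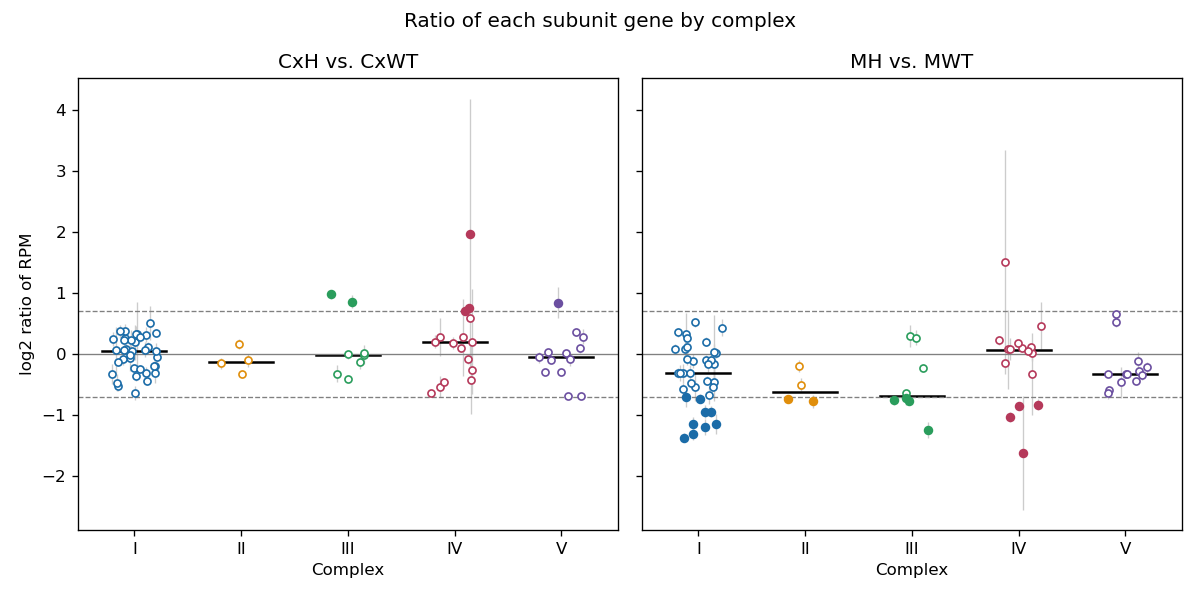
Log2 ratio of RPM for each subunit gene, by complex, for CxH over CxWT and for MH over MWT. Filled points were called, grey bars are 95% intervals from counting, black lines are medians and dashed lines mark 0.7 in either direction. In M the medians of complexes II and III, at -0.63 and -0.69, lie below those of the other complexes.

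The complexes did not share 1 median. In M the median log2 ratio was -0.32 for complex I, -0.63 for complex II, -0.69 for complex III, 0.060 for complex IV and -0.33 for complex V. In Cx the medians were 0.042, -0.13, -0.012, 0.19 and -0.053 in the same order. Medians this near to 0 have no stable sign: TMM factors add 0.093 to every Cx ratio, which turns complexes III and V positive, and column totals shift every M ratio by -0.061 and every Cx ratio by -0.016, which turns complex IV in M and all members together in Cx to just under 0. Differences between complexes have no test here, since subunits of 1 complex in 1 library are not replicates.

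Complex I, the entry point for NADH, had 9 of its 37 genes called down in M (24.3%, against 12.7% of all genes) and 0 called in Cx, where 9.46% of all genes were called up and 11.5% down. Ndufs4, an accessory subunit of the NADH-oxidising arm, had 99.2 RPM in CxH against 78.2 in CxWT, and 59.3 in MH against 154 in MWT. It was highest in MWT and lowest in MH, with a log2 ratio of -1.38 ± 0.038 in M and 0.34 ± 0.037 in Cx. Ndufb6, an accessory membrane-arm subunit, had 46.9 and 58.2 RPM in the Cx libraries CxH and CxWT, 34.1 in MH and 85.1 in MWT, and a ratio in M of -1.32 ± 0.050. Ndufa6, another accessory subunit, stood out in MWT at 60.1 RPM, with 32.8 in CxH, 26.3 in CxWT and 27.1 in MH. Its ratio in M was -1.15 ± 0.057.

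The accessory pair Ndufc1 and Ndufc2 was called down in M, at log2 ratios of -1.15 and -1.21. Ndufb5 followed at -0.95 ± 0.053, and Ndufa12 was just past the threshold at -0.72 ± 0.083, and short of it with TMM factors at -0.657. Among the 7 core subunits in the table, which include the carriers of flavin and iron-sulfur clusters, 2 were called down in M (28.6%, against 12.7% of all genes), and 0 after the correction. These were Ndufv2, with 48.1, 55.4, 45.6 and 87.9 RPM and a ratio of -0.95 ± 0.045, and Ndufs3, with 107, 118, 85.2 and 142 RPM and a ratio of -0.73 ± 0.034, a call lost with TMM factors (-0.674). Ndufv1, the flavin-binding core subunit, was at 0.27 ± 0.042 and Ndufs8 at 0.35 ± 0.040, on the other side of 0. The core had a median of -0.48 in M and the 29 accessory genes one of -0.32.

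Other complex I genes stayed short of a call. Ndufb7 was just short of the threshold in M, at -0.68 ± 0.077. The highest ratio of the complex in M was that of Ndufb9, at 0.52 ± 0.040. In Cx the range ran from -0.64 ± 0.058 for Ndufs5-ps to 0.51 ± 0.14 for Ndufa3. Ndufa4, which is named with complex I but is also described as part of complex IV, had the most reads per kilobase of the Nduf genes in 3 libraries, at 156 RPKM in CxH, 163 in CxWT and 166 in MWT. In MH its 134 RPKM was behind the 151 RPKM of Ndufb9. Its ratios were -0.063 ± 0.038 in Cx and -0.31 ± 0.042 in M.

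All 4 genes of complex II, the succinate dehydrogenase that also works in the citrate cycle, were lowest in MH. Sdha, the flavoprotein that oxidises succinate, had 275 RPM in CxH against 345 in CxWT, and 256 in MH against 429 in MWT, and was called down in M at -0.75 ± 0.020, though not with TMM factors (-0.688) or after the correction (-0.587). Sdhd, a membrane anchor, had 39.2, 42.2, 29.9 and 51.4 RPM and a ratio of -0.78 ± 0.057. The iron-sulfur subunit Sdhb had the highest ratio in both areas, 0.16 ± 0.045 in Cx and -0.20 ± 0.051 in M.

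Complex III showed its largest Cx ratio in Uqcrq, a small subunit near the cytochrome b core, which had 118 RPM in CxH and 109 in MWT against 59.7 in CxWT and 64.4 in MH. CxH and MWT were thus the high libraries, and they are also the ones with less Ids. The log2 ratio was 0.98 ± 0.039 for CxH over CxWT and -0.75 ± 0.039 for MH over MWT, opposite by the labels, while by Ids the level was higher on the side with less Ids in both. The ratio in M fell short of the threshold at -0.696 with TMM factors, -0.695 with DESeq2 size factors and -0.51 after the correction. Uqcr11, the smallest subunit by coding length, was high in CxH alone, at 52.4 RPM with 28.9 in CxWT, 36.0 in MH and 30.0 in MWT. Its ratio was 0.86 ± 0.056 in Cx and 0.26 ± 0.063 in M.

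Uqcrb, which lies at the ubiquinone-binding side, was high in MWT, at 45.2 RPM with 19.8 in CxH, 24.8 in CxWT and 19.1 in MH, and had the lowest ratio of the complex in M at -1.24 ± 0.067. Uqcrfs1, the Rieske iron-sulfur protein that moves electrons to cytochrome c1, had 90.6, 91.2, 69.5 and 119 RPM and a ratio in M of -0.77 ± 0.038. Uqcrh, the hinge protein, was at -0.73 ± 0.056, and at -0.673 with TMM factors. The core proteins Uqcrc1 and Uqcrc2 were not called, at -0.23 ± 0.032 and -0.65 ± 0.031 in M. Uqcr10 had the highest ratio of the complex in M, at 0.29 ± 0.094, and was not called. A near-identical copy of the transcript elsewhere in the genome was found for 13 members, and none for another 64. The counts of Ndufs3, Atp5k and Atp5o are less certain for this reason, as are those of Uqcrb, Uqcrh and Uqcr11, of which 3, 1 and 2 copies stand elsewhere.

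Complex IV, cytochrome c oxidase, split in M. Its median was near 0, and with Ndufa4 added it was 0.041, yet 4 of the 16 genes were called down (25.0%, against 12.7% of all genes). Cox5a, next to the catalytic core, had 70.0 RPM in CxH against 74.0 in CxWT, and 49.2 in MH against 101 in MWT and a ratio of -1.04 ± 0.043. Cox7b had 132 RPM in CxH against 206 in CxWT, and 153 in MH against 278 in MWT. Its log2 ratio was -0.65 ± 0.027 in Cx, which missed the threshold, and -0.86 ± 0.025 in M, so it was lower in the library labelled Ids-/- in both areas and, by Ids, lower in Cx and higher in M where Ids was low. Cox7a2 was at -0.83 ± 0.046 in M.

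The high libraries were different for another set of complex IV genes. Cox6a1 had 214 RPM in CxH and 127, 123 and 116 in CxWT, MH and MWT, and Cox8a had 228 against 140, 173 and 153. Both stood highest in CxH, with ratios in Cx of 0.76 ± 0.027 and 0.71 ± 0.026, the latter just past the threshold. Cox8a fell short of it with column totals (0.694), and both did after the correction, Cox6a1 at 0.377 and Cox8a at 0.323. Cox4i1, the ubiquitous isoform of the largest nuclear subunit, had 166 RPM in CxH and 109.8, 110.2 and 122 in the others, and at 0.60 ± 0.030 it was not called.

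The isoforms known from muscle, lung or testis were scarce in every library. Cox4i2 was 0.73% to 1.08% of the reads on Cox4i1 and Cox4i2, Cox6a2 was 2.24% to 3.1% beside Cox6a1, and Cox6b2 was 2.99% to 4.53% beside Cox6b1. Cox7a1 gave 0.744% (exact Clopper-Pearson interval 0.397 to 1.27) of the reads with Cox7a2 in MH and 1.28% (0.87 to 1.81) in MWT. The intervals of each pair overlapped between all libraries, except that the share of Cox6a2 was lower in CxH (1.94 to 2.58) than in CxWT (2.6 to 3.65) and MH (2.6 to 3.61). Its own level was highest in CxH, at 4.91 RPM against 4.05 in CxWT, 3.91 in MH and 2.83 in MWT. The lower share goes with the higher Cox6a1 there. Ndufa4l2 stood at 1.58% to 2.38% beside Ndufa4.

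The calls of Cox8b and Cox7a1 rest on few reads. Cox8b had 9 reads in CxH against 2 in CxWT, and 11 in MH against 3 in MWT, and the ratio in Cx was 3.93 with an exact counting interval of 0.813 to 37.4, which includes 1. Cox7a1 had 13 reads in MH and 31 in MWT, a ratio of 0.325 (0.156 to 0.639).

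Complex V, the ATP synthase, had 0 of 13 genes called in M, where 12.7% of all genes were called down and 12.3% up, and 1 in Cx (7.69% up, against 9.46% of all genes), although 11 of the 13 lay below 0 in M. Atp5b, the catalytic beta subunit, had the most reads per kilobase of the complex, and its level was 620.0 RPM in CxH against 604 in CxWT, and 546 in MH against 684 in MWT. MH was again lowest, with a ratio of -0.33 ± 0.014. Atp5c1, the gamma subunit of the rotor, was lower in CxH, at 169 RPM with 271 in CxWT, 190.2 in MH and 230.2 in MWT. It came nearest to the threshold without a call in Cx, at -0.68 ± 0.023.

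Atp5k, a small Fo subunit, was the 1 call, with 9.82 RPM in CxH against 5.47 in CxWT, and 6.32 in MH against 8.74 in MWT and a ratio in Cx of 0.84 ± 0.13. Atp5l and Atp5d were the 2 members of the complex above 0 in M, at 0.66 ± 0.034 and 0.53 ± 0.041, and the Atp5l transcript has 10 near-identical copies elsewhere, the most of any member. Atp5o, the stalk subunit that holds F1 in place, had the lowest ratio in M at -0.64 ± 0.055. The median in M was -0.28 over the 5 F1 genes and -0.39 over the 8 of Fo and stalk. Atp5g3, which encodes the ring-forming subunit c, had 162 RPM in CxH against 199.5 in CxWT, and 151 in MH against 189 in MWT.

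The pairs CxH vs. MH and CxWT vs. MWT share a genotype label and differ in the area label. By the values above, each is alike in the cortical sum and apart in Ids, with log2 ratios of Ids of -1.44 ± 0.024 and 1.19 ± 0.025. The members were higher in CxH than in MH, with a median log2 ratio of 0.26 against 0.015 for all genes. There, 4 members were called up (Ndufa3, Ndufs4, Uqcrq and Cox6a1) and 0 down, beside 2.43% of all genes up and 1.06% down. Column totals left 2 of these calls, with Ndufa3 at 0.654 and Ndufs4 at 0.694, and Ndufa3 also fell short with TMM factors (0.687) and DESeq2 size factors (0.679). In CxWT vs. MWT the median was -0.13 against 0.045, and 1 member was called up and 6 down, beside 5.43% up and 2.11% down. The genes called down were Ndufa6, Ndufs4, Uqcrb, Uqcrq, Cox7a1 and Cox7a2. In both pairs the members' median lay on the side of the library with less Ids. After the GC and length correction it was 0.095 in CxH vs. MH, against 0.018 for all genes. In CxWT vs. MWT it was then 0.033 against 0.075 for all genes, so it was above 0 and still below all genes. Each of these comparisons shares its libraries with those above.

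The 2 pairs that differ in both labels completed the set. In CxH vs. MWT the median was -0.086, with 4 members up and 7 down, where 15.6% and 15.1% of all genes were called, and the split became 5 and 5 with TMM factors and 2 and 14 with column totals. In MH vs. CxWT the median was -0.23, with 1 up and 2 down, where the shares were 6.41% and 8.89%, and the split became 2 and 0 with TMM factors. Ndufb6 was down in both of these pairs, at -0.86 ± 0.045 and -0.77 ± 0.052.

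GC content moved with these ratios. The longest coding transcripts of the 77 members with one were short, with a median of 861 bases against 3101 for all genes, and 67 fell in the shortest of 5 bins of equal size. Their GC content was 52.1% at the median, near the 50.7% of all genes, and ran from 38.4% to 60.8%. Spearman's rho between log2 ratio and GC over the members was 0.40 in Cx and 0.43 in M, and over all genes 0.43 and 0.46. With length, rho was -0.42 and -0.14 over members and -0.10 and 0.13 over all genes. These are descriptions across genes that share the same libraries.

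Coding sequences of 2 complex IV subunits are printed as examples from either side of the GC range, chosen after their ratios were seen. They are read from GENCODE vM1 on NCBIM37, with G and C in capitals. Cox7b (chromosome X, gene from 103211039 to 103217789, plus strand) had ratios below 0 in both areas. Its coding sequence is 47.3% GC and its transcript 42.0%. Cox8a (chromosome 19, gene from 7289648 to 7292106, minus strand) was called up in Cx. Its coding sequence is 64.8% GC and its transcript 58.9%. The range and the trend above are of transcripts. Cox7c, of the same complex, goes against this order: its coding sequence is 40.7% GC, its transcript is the lowest in GC of all members, and its ratios were 0.095 ± 0.033 in Cx and 0.22 ± 0.037 in M.
Cox7b: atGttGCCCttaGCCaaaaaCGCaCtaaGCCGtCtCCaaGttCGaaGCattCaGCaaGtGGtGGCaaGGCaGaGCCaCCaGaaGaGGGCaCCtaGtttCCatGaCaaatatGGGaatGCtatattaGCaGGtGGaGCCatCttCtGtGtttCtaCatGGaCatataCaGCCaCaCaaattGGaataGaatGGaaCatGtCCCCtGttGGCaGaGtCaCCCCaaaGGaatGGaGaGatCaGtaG
Cox8a: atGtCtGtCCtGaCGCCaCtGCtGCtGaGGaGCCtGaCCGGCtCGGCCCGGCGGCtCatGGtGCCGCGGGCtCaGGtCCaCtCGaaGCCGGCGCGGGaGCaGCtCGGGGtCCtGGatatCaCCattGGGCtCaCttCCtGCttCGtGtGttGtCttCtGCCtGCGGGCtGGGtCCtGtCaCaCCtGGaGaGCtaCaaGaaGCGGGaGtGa

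Split into 5 such bins by GC content, the 9 members of the lowest bin had a median log2 ratio in M of -0.86 and the 15 of the highest bin one of 0.078, while other genes of those bins were at -0.38 and 0.41. The members were lower than other genes in each bin in M. In Cx the members of the lowest and highest bin were at -0.20 and 0.27, and other genes at -0.42 and 0.19. Among genes of the shortest bin by length, members were at -0.32 in M and other genes at -0.18.

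**Figure D3:**
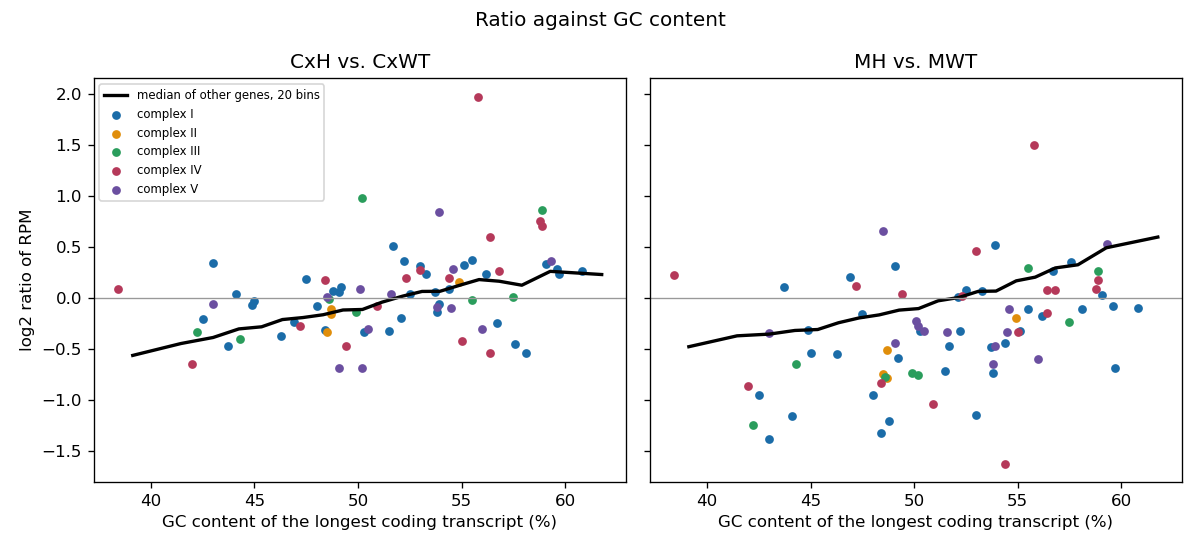
Log2 ratio of RPM against GC content of the longest coding transcript, for the subunit genes (points, coloured by complex) and as the median of all other genes in 20 bins of GC (line), for CxH over CxWT and for MH over MWT. The ratios of both rise with GC, and in M most members lie below the line.

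Ratios were then corrected by a quadratic fit on GC content and length over all genes that reached 100 reads in all 4 libraries. The median of the members moved from -0.32 to -0.065 in M, with all genes at -0.026, and from 0.016 to -0.052 in Cx, with all genes at -0.085. Over the members a relation with length was still there: rho between corrected ratio and length was -0.35 in Cx and -0.36 in M, while rho with GC was -0.12 and 0.030. In M, 4 members were then past the thresholds upward and 5 downward, in place of 0 and 19, beside 8.64% of all 12348 genes with a transcript upward and 8.97% downward. Ndufs4 (-0.84), Ndufb6 (-0.78), Ndufa6 (-0.78) and Cox7a1 (-1.21) remained down, joined by Ndufb7 (-0.74). Cox7c (1.03), Atp5l (1.26), Ndufb9 (0.80) and Cox6a2 (0.79) were up.

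In Cx, the corrected ratios left Uqcrq up at 0.97 and Cox8b at 1.64, where 7.81% of all genes were past the thresholds upward and 9.48% downward, and put Ndufa11 (-0.80), Ndufs8 (-0.74) and Cox5b (-0.84) down. Corrected medians in M were -0.19 for complex I, -0.40 for complex II, -0.31 for complex III, 0.19 for complex IV and -0.032 for complex V. Complexes II and III stayed lowest. In the 4 remaining pairs CxH vs. MH had 3 corrected calls up and 0 down, beside 1.48% and 0.867% of all genes. CxWT vs. MWT had 4 and 1, beside 1.98% and 1.22%. The counts were 3 and 2 in CxH vs. MWT, beside 8.3% and 7.18%, and 2 and 1 for MH over CxWT, beside 6% and 8.61%. What part GC content has in the uncorrected ratios was not tested.

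**Figure D4:**
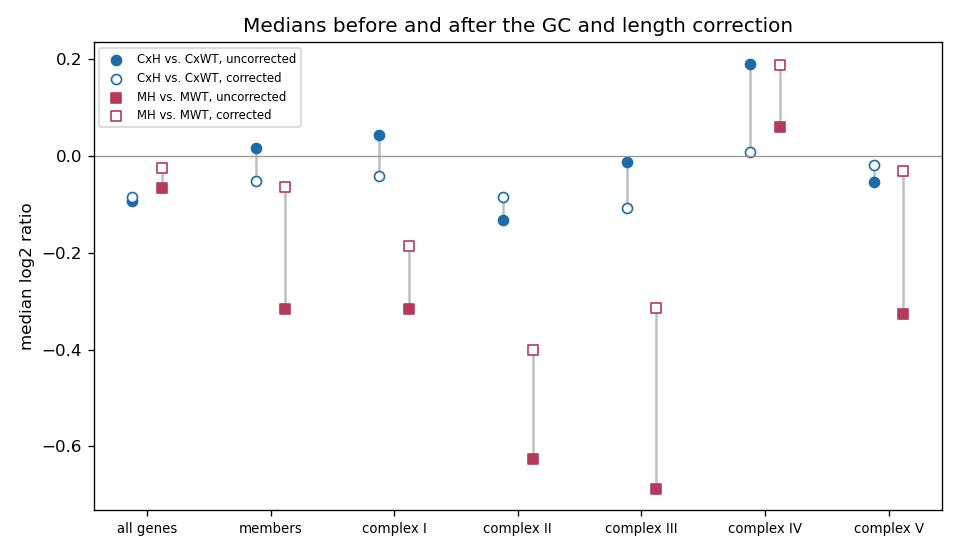
Median log2 ratio of all genes, of the 78 members and of each complex before (filled) and after (open) the correction for GC content and length, in CxH vs. CxWT (circles) and MH vs. MWT (squares). In M the median of the members moves from -0.32 to -0.065.

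Promoters were read for motifs of 2 factors known to act on respiratory genes. The windows are the 250 bases before the start in RefSeq on GRCm38.p6, found for 62 members. The NRF1 core, GCGCA and GCGC with 1 base of any kind between them, stood on either strand in 10 of them (16.1%), against 8.84% of the table's genes with a window and 4.23% of all promoters. The Ets core CCGGAAG stood in 11 (17.7%), against 14.6% and 7.83%. Among the 17 members called down in M that have a window, 2 (11.8%) held the first and 4 (23.5%) the second. Among the 5 called up in Cx that have a window, 2 held the first and 2 the second. A match describes letters and not binding.

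The windows of 3 of these 5 members called up in Cx are given because they hold such letters, which are in capitals. The others of the 5 held neither motif. They are Cox6a1 (chr5:115348959-115349208, minus strand), Atp5k (chr5:108434400-108434649, minus strand) and Uqcr11 (chr10:80406822-80407071, minus strand).
Cox6a1: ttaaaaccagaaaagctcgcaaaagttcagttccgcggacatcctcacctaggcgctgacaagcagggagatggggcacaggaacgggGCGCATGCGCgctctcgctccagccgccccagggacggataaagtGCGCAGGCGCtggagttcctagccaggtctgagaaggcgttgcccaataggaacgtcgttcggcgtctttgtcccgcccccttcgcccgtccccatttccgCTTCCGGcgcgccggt
Atp5k: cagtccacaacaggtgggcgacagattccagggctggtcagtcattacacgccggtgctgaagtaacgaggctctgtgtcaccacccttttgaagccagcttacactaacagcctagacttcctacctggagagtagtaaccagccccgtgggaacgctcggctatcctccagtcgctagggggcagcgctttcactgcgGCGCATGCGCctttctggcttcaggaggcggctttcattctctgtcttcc
Uqcr11: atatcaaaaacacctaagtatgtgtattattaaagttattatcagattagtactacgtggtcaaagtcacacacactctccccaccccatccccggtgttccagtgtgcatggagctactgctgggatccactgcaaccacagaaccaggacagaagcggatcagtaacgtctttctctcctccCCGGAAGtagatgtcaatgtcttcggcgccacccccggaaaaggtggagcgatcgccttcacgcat

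Neighbouring gene groups were read the same way. Of 39 assembly factors, which build the complexes without staying in them, 3 were called down in Cx (7.69%, against 11.5% of all genes) and 7 in M (17.9%, against 12.7%), with 0 up, and the medians were -0.14 and -0.35. Among 71 mitochondrial ribosomal proteins, calls in Cx were 2 up with 2 down (2.82% each), and in M 13 down (18.3%) with none up, with a median in M of -0.34. The 18 citrate cycle genes had medians of -0.23 and -0.094, with 2 and 1 called down (11.1% and 5.56%), and the 17 regulators of mitochondrial transcription and biogenesis 0.021 and -0.063.

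Groups outside mitochondria were read beside these. As background for their calls before the correction, 12.7% of all genes had a call down in M, with 12.3% called up. For Cx the same 2 shares were 11.5% and 9.46%. The 33 cytosolic ribosomal proteins in the table, whose transcripts are also short, had medians of 0.27 in Cx and -0.41 in M, with 5 calls up (15.2%) beside 1 down in the first and 1 beside 8 (24.2%) in the second. The 36 proteasome genes were at -0.097, near all genes, and -0.29, with 2 called down in M (5.56%), and the 18 genes of the vacuolar ATPase at -0.0093, positive with TMM factors, and -0.13, with 0 called down in either area and 1 up in Cx (5.56%) and 2 up in M (11.1%). Each of these groups, the mitochondrial ones included, had a median below 0 in M before the correction, and differences between groups were not tested. After it, the medians in M were -0.14 for assembly factors, with 3 called down, -0.14 for the mitochondrial ribosome, with 2 up and 5 down, and -0.13 for the cytosolic ribosome, with 1 up and 2 down. These calls are out of 39, 71 and 32 genes, beside 8.64% of all genes called up and 8.97% down after the correction. The citrate cycle was then above 0 at 0.073, with the regulators at -0.10, the proteasome at -0.034 and the vacuolar ATPase at -0.0028.

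Markers of other cells differed between the libraries as well. The summed level of 12 microglial genes was 788 RPM in CxH against 436 in CxWT, and 500.4 in MH against 645 in MWT. The 10 oligodendrocyte genes summed to 4881, 9303, 5087 and 7437 RPM, 10 astrocyte genes to 4177, 3166, 3391 and 3855, and 8 endothelial genes to 217, 165, 179 and 201, each in CxH, CxWT, MH and MWT. The microglial, astrocyte and endothelial sums shared 1 order, CxH, MWT, MH and CxWT from high to low, with CxH and MWT above the others as for Uqcrq. Single markers went both ways: in MH vs. CxWT 7 of the 10 astrocyte genes were below 0, with a median of -0.29, although the sum was higher in MH, and CxH vs. CxWT split them 5 and 5. The 2 red cell genes in the table, of 7 listed, ran another way, summing to 125 RPM in CxH against 254 in CxWT, and 186 in MH against 77.1 in MWT. None of the markers in these lists was at 0. Their part in the ratios of the subunits was not tested.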

How the data were processed

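Both areas were taken from the same 7 mice of each genotype. Total RNA was pooled for each genotype and area, and mRNA was purified from the pool and sequenced as 1 SOLiD library per condition. The authors aligned reads to mm9 with PASS, and the deposited counts are reads assigned to a single gene, without normalization; their gene annotation is not given in the sources used here. Entrez IDs were matched to RefSeq symbols for 12690 of 12700 genes. Counts were scaled by the aligned reads the study gives per library. Positions, length and GC content came from GENCODE vM1. Calls used a Poisson likelihood ratio test, at 0.05 and a log2 ratio of 0.7. Copies were BLAST 2.17.0 hits of at least 95% identity over 50% of a transcript. Members and gene lists were chosen with earlier results of these data known. Named genes were those called in Cx or M, the highest and lowest of each complex, isoform groups, the gene with most reads per kilobase, and those next to the threshold; Ndufv1, Ndufs8, Uqcrc1, Atp5d, Cox7c and members called only after correction were added once their values were seen. Software was R 4.3.3 with DESeq2 1.42.0 and edgeR 4.0.16, and Python 3.11.15 with scipy 1.17.1, pandas 2.3.3, numpy 2.4.6 and matplotlib 3.10.9. The steps were tested on simulated data.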

Additional observations from a re-analysis of the deposited data

Results flagged for a closer look

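By the labels, Uqcrq had ratios of opposite sign in the 2 areas, with a log2 ratio of 0.98 in CxH vs. CxWT and -0.75 in MH vs. MWT. Both libraries with less Ids, CxH and MWT, were the high ones, so by Ids the direction was the same; the call in MH vs. MWT was lost with TMM factors (-0.696), DESeq2 size factors (-0.695) and the GC and length correction (-0.51). In the pairs with 1 genotype label and 2 area labels the ratio was 0.87 for CxH over MH and -0.86 for CxWT over MWT. Ndufs4 was at 0.74 for CxH over MH and -0.98 for CxWT over MWT, so it too was higher in the library with less Ids of each pair. Its call in CxH vs. MH was lost with column totals (0.694). In CxWT vs. MWT the GC and length correction left Ndufs4 at -0.615 and Uqcrq at -0.677, both short of the threshold. With 1 library per condition, these differences were not tested.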

How the results depend on the processing

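No paired analysis was possible because each condition has 1 library and the groups compared share only 1 replicate number. By the labels CxH and MH come from the same mice, as do CxWT and MWT, but the RNA of these mice was pooled. Depth and the single pools limit what can be read: a call compares libraries, and that of Cox8b in Cx has an exact counting interval that includes 1. Of the 50 calls of members over the 6 pairs, 45 held with column totals and 40 with either TMM factors or DESeq2 size factors, 13 held after the GC and length correction with 36 lost, and none of these calls changed direction under those settings; the cause was not tested. Column totals moved the median of all genes in CxH vs. MWT from -0.040 to -0.15, and TMM factors that in MH vs. CxWT from -0.11 to -0.0036. The median of the members became 0.11 in Cx and -0.13 in MH vs. CxWT with TMM factors (-0.13 with DESeq2 size factors), and -0.19 in CxH vs. MWT with column totals. After the GC and length correction it was -0.065 in M, 0.095 in CxH vs. MH, 0.033 in CxWT vs. MWT and 0.029 in CxH vs. MWT, with 9 members called in M and 5 in CxH vs. MWT. Column totals left 2 calls in CxH vs. MH and gave 11 in CxWT vs. MWT. A log2 threshold of 1, stricter by construction, left 1 call in Cx, 8 in M, 0 in CxH vs. MH, 1 in CxWT vs. MWT, 2 in CxH vs. MWT and 1 for MH over CxWT. An edgeR exact test with an assumed variation of 0.2 left 2 in Cx, 12 in M, 1 in CxH vs. MH, 7 in CxH vs. MWT and 1 for MH over CxWT. A minimum of 100 reads left 1 in MH vs. CxWT. Leaving out members with a copy elsewhere, an alternative chosen after seeing the data, gave 4 calls in Cx and 16 in M. The share of all genes called is given only for the main thresholds and for the GC and length correction. Counts of members at the other settings have no such background beside them.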
